A study of Mus musculus with 34 samples.

Results

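Complement was followed through 31 genes in 34 mouse livers. The genes encode the components and regulators of the cascade. They were picked by name for their place in it, though with earlier results of these data known. They are 31 of the 35976 gene symbols in the deposited table, and all 31 were among the 19295 genes with enough signal to test. All mice were C57BL/6, with both copies of TetO-Cas9 and of Rosa-rtTA, so that Cas9 could be switched on in every group, controls included. Each also carried an AAV, a viral vector, that delivered a guide RNA, and each ate a Western diet for 3 months. The guides were directed at Bcl6 in 5 livers, Irs1 in 5, Smyd2 in 6, Srebf1 in 5 and Tbx3 in 7. The control group of 6 livers joined 4 given a guide to GFP (sgGFP) and 2 given a guide to LacZ (sgLacZ), sequences that are foreign to the mouse. The sources used here do not give age, sex, the number of guides per gene or the share of liver cells edited. The groups are named below as labelled, with KO for knockout.

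Complement is a chain of plasma proteins that marks microbes and damaged cells for removal and can punch pores into membranes. It is started by antibody-bound C1 (the classical pathway), by sugar-binding lectins (the lectin pathway) or by spontaneous turnover of C3 (the alternative pathway). All routes meet at enzymes called convertases that split C3 and then C5. Fragments of C5 and the proteins C6 to C9 then build the membrane attack complex, and a set of inhibitors holds the chain in check. Hepatocytes make most of the plasma components. C1q is made largely by macrophages, and factor D (Cfd) is best known in mice as an adipocyte product.

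The livers yielded total RNA libraries whose deposited FPKM values (fragments scaled to transcript length and library size) imply 2110000 to 3130000 counted reads each, with a median of 2610000. At the median depth, 1 read on a transcript of 1 kb is worth 0.383 FPKM, so genes of a few FPKM rest on few reads. Albumin (Alb), the main plasma protein of hepatocytes, stood between 36633 and 155442 FPKM in the 34 livers. The transcript of the targeted gene passed no test against control, with log2 changes of 0.05 for Bcl6, 0.33 for Irs1, -0.30 for Smyd2, -1.06 for Srebf1 and 0.45 for Tbx3 and limma adjusted p of 0.980, 0.165, 0.742, 0.0611 and 0.441 in turn. The library labelled Srebf1 KO replicate 1 held 1908 FPKM of Srebf1, inside the control range. The other 4 Srebf1 KO livers held 499 to 632 FPKM of Srebf1 and the controls 1095 to 2177. Tbx3 KO replicate 1 held 248 FPKM of Tbx3, where the other 6 Tbx3 KO livers held 80.1 to 178 and the controls 45.9 to 147. Irs1 KO replicate 1 held 35.8 FPKM of Irs1, where the other 4 Irs1 KO livers held 25.4 to 31.03 and the controls 20.2 to 27.6. Tbx3 KO replicate 7 stood apart from its group in macrophage genes and sgGFP replicate 3 correlated least with the other libraries, so results that rest on one of these libraries are given with and without it.

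The promoters of 5 members called in Bcl6 KO livers are shown, chosen after their values were seen: the attack complex genes C8a, C8b and C9, which were lower than in control, and the lectins Mbl1 and Mbl2, which went in opposite directions. Each is the RefSeq window on GRCm38.p6 from 250 bases before the start site to 50 bases into the transcript, read 5′ to 3′ on the gene's strand. Capitals in C8a mark a match to TTCNNNGAA, the palindrome that STAT factors bind and that the BCL6 motif resembles. Capitals in Mbl1 and Mbl2 mark the longest run of bases that the pair share. C8a lies at chr4:104876349-104876648 on the minus strand, C8b at chr4:104766067-104766366, C9 at chr15:6445096-6445395, Mbl1 at chr14:41151206-41151505 and Mbl2 at chr19:30232678-30232977, the last 4 on the plus strand.
C8a: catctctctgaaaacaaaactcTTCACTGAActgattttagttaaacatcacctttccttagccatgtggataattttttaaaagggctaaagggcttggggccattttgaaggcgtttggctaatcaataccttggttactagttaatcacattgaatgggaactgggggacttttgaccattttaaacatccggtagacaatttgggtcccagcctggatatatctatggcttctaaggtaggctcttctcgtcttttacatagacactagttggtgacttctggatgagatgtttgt
C8b: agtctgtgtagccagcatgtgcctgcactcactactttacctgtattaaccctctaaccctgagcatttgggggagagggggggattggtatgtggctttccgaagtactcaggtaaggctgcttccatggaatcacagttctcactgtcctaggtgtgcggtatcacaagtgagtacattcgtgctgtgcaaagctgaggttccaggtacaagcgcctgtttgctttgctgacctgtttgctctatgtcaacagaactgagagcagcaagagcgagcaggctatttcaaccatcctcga
C9: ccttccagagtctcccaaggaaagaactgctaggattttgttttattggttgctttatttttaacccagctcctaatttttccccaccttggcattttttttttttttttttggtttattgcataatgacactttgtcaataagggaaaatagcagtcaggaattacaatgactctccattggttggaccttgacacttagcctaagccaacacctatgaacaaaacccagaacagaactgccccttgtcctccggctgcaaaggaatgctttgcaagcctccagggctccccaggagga
Mbl1: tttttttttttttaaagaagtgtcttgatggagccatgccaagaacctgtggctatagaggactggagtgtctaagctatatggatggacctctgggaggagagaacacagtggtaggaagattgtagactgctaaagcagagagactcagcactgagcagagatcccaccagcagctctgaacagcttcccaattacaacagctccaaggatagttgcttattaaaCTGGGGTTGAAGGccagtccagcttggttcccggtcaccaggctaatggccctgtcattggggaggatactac
Mbl2: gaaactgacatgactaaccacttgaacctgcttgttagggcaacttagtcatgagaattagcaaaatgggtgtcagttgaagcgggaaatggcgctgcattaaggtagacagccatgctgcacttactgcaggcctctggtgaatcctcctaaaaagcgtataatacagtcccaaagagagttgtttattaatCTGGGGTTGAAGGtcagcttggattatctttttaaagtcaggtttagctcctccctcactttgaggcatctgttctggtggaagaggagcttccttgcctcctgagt
TTCNNNGAA was searched on both strands and occurred in 5 of the 22 members with a window in the table (C1ra, Masp2, C7, C8a and Vtn), and in 8.30% of all 32851 windows. The member count is per gene and the share is per window, so they cannot be compared directly. In C8a it began 228 bases before the start site. The windows of C8b and C9 held no match, nor did that of C6, which was also lower in Bcl6 KO and is not shown. Of the other members with a match, Vtn was higher in Bcl6 KO, and C1ra, Masp2 and C7 were not called there. TCACNCCAC, a form of the sterol element bound by SREBP1, occurred in no member window and in 1.24% of all, and AGGTGTGA, the T-box core site, in none and in 1.28% of all. The run shared by Mbl1 and Mbl2 has 13 bases, beginning 23 bases before the Mbl1 start site and 57 before that of Mbl2, and was found in 3 of all windows. C8a and C8b are neighbours on chromosome 4 that point at each other, with 11130 bases between their 3′ ends in GENCODE M21, the GRCm38 annotation used here for gene positions.

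In the 6 control livers, C3 was the highest member, with FPKM values from 8384 to 11549 and a mean of 10323 ± 1328 (SD, n = 6), which gave it rank 16 among all genes. C3 is the hub protein of the cascade. A further 7 members had control means of 1000 FPKM or more. They were factor B (Cfb, 2473 FPKM), clusterin (Clu, 2010 FPKM), C4b (1969 FPKM), C4bp (1575 FPKM), C1s1 (1457 FPKM), factor I (Cfi, 1195 FPKM) and C8a (1085 FPKM). Another 14 members lay between 100 and 1000 FPKM, and 6 lay between 10 and 100. The lowest 3 were the receptor genes C3ar1, at 7.80 FPKM, and C5ar1, at 3.95 FPKM, and the pore component C7, at 3.86 FPKM. The values of 21 members were sums over transcripts of different length, judged by their decimals, so the order of levels between genes is approximate.

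**Figure D1:**
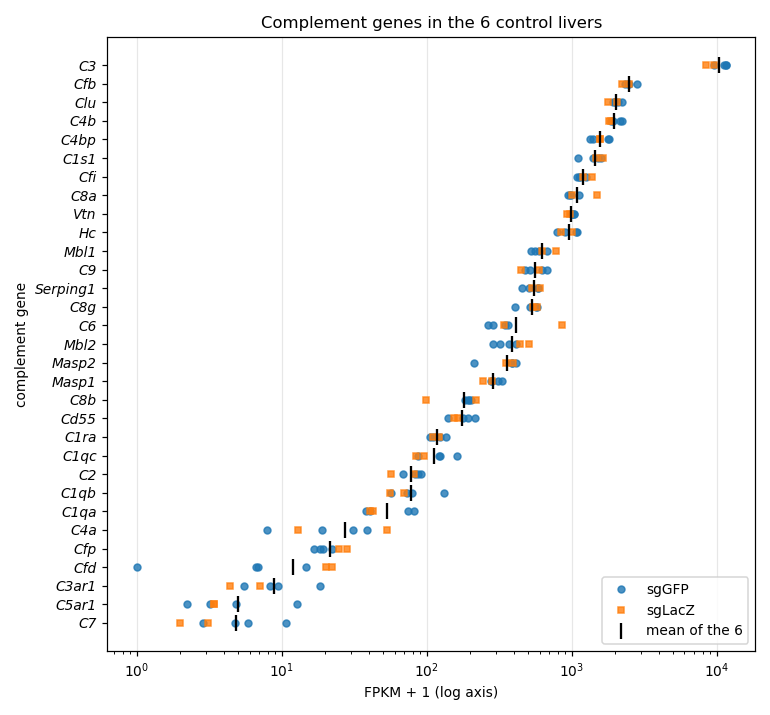
FPKM + 1 on a log axis for the 31 complement genes in the 4 sgGFP livers (circles) and the 2 sgLacZ livers (squares), with the mean of the 6 as a bar, ordered by that mean. C3 stood highest at a mean of 10323 FPKM, and C7 lowest at 3.86 FPKM.

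Between the controls themselves, no member differed (sgLacZ against sgGFP, limma over all genes, 0 calls, 1 member with an unadjusted p under 0.05). Over all genes tested, 0.0104% were called in that comparison. The smallest p belonged to C7, Mbl2 and C6, with adjusted p of 0.736, 0.752 and 0.803. In C6 the gap was made by sgLacZ replicate 1 at 853 FPKM, where the other 5 controls held 265 to 365.

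Against control, members were called in 2 of the 5 knockouts. In Bcl6 KO livers 13 of 31 members passed the threshold (limma, adjusted p under 0.05), 7 higher and 6 lower, where 2.95% of all genes tested were higher and 3.19% lower. In Irs1 KO livers 9 passed, 7 higher and 2 lower, where 3.24% of all genes were higher and 7.61% lower. In Smyd2 KO livers 0 members passed and 0% of all genes did in either direction. In Srebf1 KO livers 0 passed, with 0.197% of all genes higher and 0.181% lower, and in Tbx3 KO livers 0 passed, with 1.17% higher and 1.37% lower. Of the members, 12 in Smyd2 KO, 3 in Srebf1 KO and 10 in Tbx3 KO had an unadjusted p under 0.05, which is 38.7%, 9.68% and 32.3% of them, where 7.17%, 13.1% and 17.5% of all genes tested had one. The median log2 change of the members was 0.17 in Bcl6 KO (all genes tested, -0.07), 0.26 in Irs1 KO (-0.12), 0.18 in Smyd2 KO (-0.00), 0.10 in Srebf1 KO (-0.05) and 0.05 in Tbx3 KO (-0.06). Of all genes called in Bcl6 KO 48.1% were higher, against 65.3% under median scaling and 59.3% under quantile normalization, and in Irs1 KO the share was 29.8%, 48.2% and 49.3%. All 5 comparisons use the same 6 control livers, so their values are not independent. Each log2 change was taken on log2(FPKM + 1), a scale on which the changes of low genes come out too small.

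**Figure D2:**
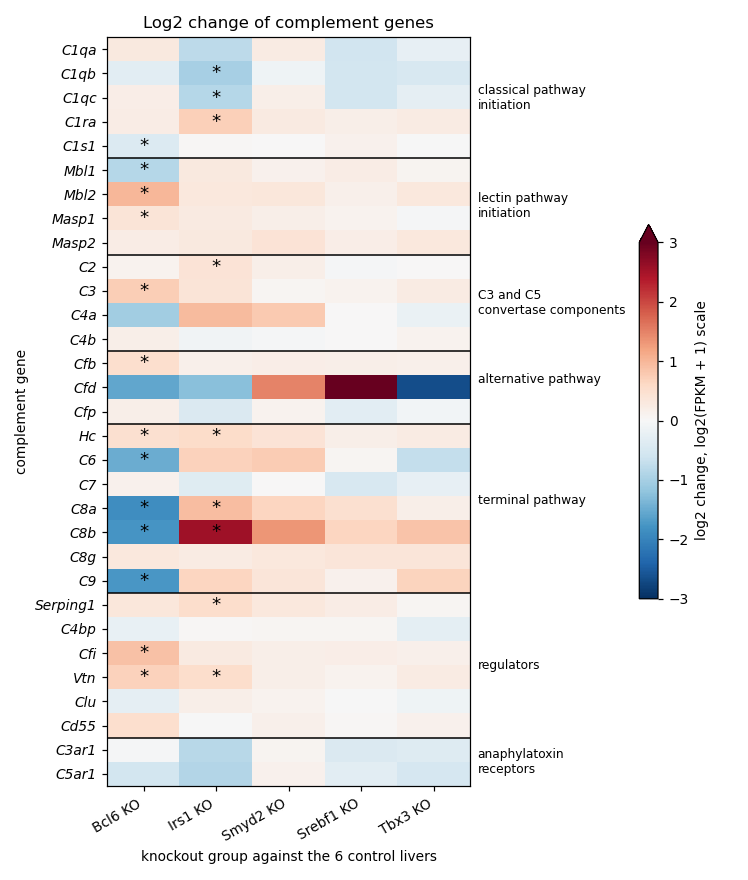
Log2 change against the 6 control livers, on the log2(FPKM + 1) scale, for the 31 complement genes (rows, by role) in the 5 knockout groups (columns). A star marks a limma adjusted p under 0.05, which 13 members reached in Bcl6 KO and 9 in Irs1 KO. The colour scale ends at 3, and the Cfd value of Srebf1 KO, 3.77, lies past it.

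In Bcl6 KO livers 4 of the 7 terminal pathway (attack complex) genes were lower than control and 1 was higher. The median log2 change of the 7 was -1.50. In Irs1 KO livers 3 were higher and none lower, with a median of 0.64. These genes encode C5 (Hc in the mouse), which starts the attack complex, C6 and C7, which bind it in turn, the 3 chains of C8 (C8a, C8b, C8g), and C9, which forms the wall of the pore.

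Among the attack complex genes C8b covered the widest range of knockout means. In the control livers its FPKM ran from 98.4 to 217 with a median of 193, and in the 5 Bcl6 KO livers it was 23.4, 84.3, 44.9, 31.8 and 120. All 5 lay below the control mean, although the highest Bcl6 KO liver exceeded the lowest control, sgLacZ replicate 2. The means were 60.8 ± 40.3 (SD, n = 5) and 181 ± 41.9 (SD, n = 6), a log2 change of -1.76 (SE 0.35, limma adjusted p = 8.7e-04). In the Irs1 KO livers C8b reached 836, 1267, 1373, 860 and 893 FPKM. Every one of these was above every control. Their mean of 1046 ± 254 was 5.79-fold that of the controls, a log2 change of 2.54 (SE 0.35, adjusted p = 2.4e-05). In Smyd2 KO the mean was 484 ± 206 (n = 6), in Tbx3 KO 340 ± 134 (n = 7) and in Srebf1 KO 285 ± 103 (n = 5), and none of these passed against control (adjusted p = 0.201, 0.139 and 0.434).

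C8a, the partner chain that lies beside C8b on the chromosome, followed the same order at the ends. Control livers held 943 to 1485 FPKM with a median of 996. Bcl6 KO livers held 165, 498, 222, 218 and 548 FPKM, all below the lowest control. The log2 change was -1.86 (SE 0.24, adjusted p = 1.1e-06), and the group mean was 3.29-fold lower than that of the controls. Irs1 KO livers held 1470, 1893, 3364, 1779 and 2088 FPKM of C8a, of which the lowest fell just under the highest control, and the change was 0.92 (SE 0.24, adjusted p = 0.011). The third chain, C8g, did not pass in any knockout. Its means were 530 ± 64.9 FPKM in control and between 622 ± 49.1 in Irs1 KO and 692 ± 130 in Tbx3 KO. The ratio of C8a to C8b within a liver had a median of 5.61 in control, 5.91 in Bcl6 KO and 2.07 in Irs1 KO, and the Irs1 KO values, 1.49 to 2.45, lay below the control range of 4.71 to 10.1. The ratio of C8a to C8g was 0.249 to 0.721 in Bcl6 KO and 1.73 to 2.75 in control.

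C9 was 74.6, 222, 207, 102 and 312 FPKM in the Bcl6 KO livers and 449 to 675 FPKM, with a median of 552, in control. No Bcl6 KO liver reached the lowest control, and the log2 change was -1.76 (SE 0.22, adjusted p = 1.3e-06). C6 was 86.6, 150, 139, 105 and 211 FPKM in Bcl6 KO against 265 to 853 with a median of 342 in control, again without overlap. Its log2 change was -1.50 (SE 0.34, adjusted p = 0.00475). In the Irs1 KO livers C9 averaged 869 ± 176 FPKM (log2 change 0.64, SE 0.22, adjusted p = 0.0613) and C6 averaged 650 ± 248 FPKM (0.70, SE 0.34, adjusted p = 0.195), so neither passed. C7 lay between 0.775 and 9.65 FPKM over all 34 livers and passed in no comparison.

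Hc was higher than control in both groups. It measured 1275, 1381, 1250, 1510 and 1162 FPKM in Bcl6 KO, all above the control range of 792 to 1095 (median 951). The log2 change was 0.47 (SE 0.13, adjusted p = 0.0255), and the call was lost with the sgGFP livers alone as control (adjusted p = 0.0732). It was also lost without Bcl6 KO replicate 2 or 4, sgGFP replicate 1 or 3, or sgLacZ replicate 2, with adjusted p of 0.0515 to 0.0946. Over all alternatives the adjusted p ran from 0.00993 to 0.0946. In Irs1 KO Hc measured 1070, 1527, 2064, 1075 and 1365 FPKM, with the lowest 2 inside the control range, and the change was 0.54 (SE 0.13, adjusted p = 0.00755).

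**Figure D3:**
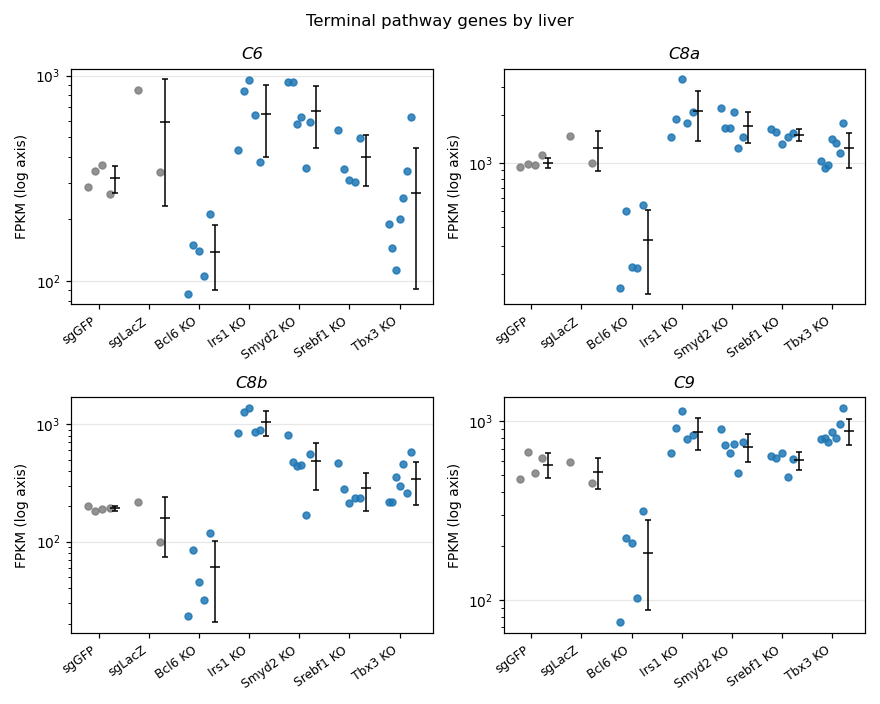
FPKM on a log axis for C6, C8a, C8b and C9 in each liver (points) of the 2 control groups (grey) and the 5 knockout groups (blue), with mean ± SD beside them. The Bcl6 KO mean is the lowest in all 4 genes, and for C8b the 5 Irs1 KO livers, 836 to 1373 FPKM, sit above all others.

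The lectin pathway genes moved in opposite directions in Bcl6 KO livers. Mbl1 and Mbl2 encode the mouse mannose-binding lectins A and C, which recognise sugars on microbes. Mbl1 was 283, 376, 341, 350 and 375 FPKM in Bcl6 KO and 519 to 785, with a median of 609, in control. Mbl2 was 806, 768, 599, 933 and 737 FPKM in Bcl6 KO and 286 to 508, with a median of 388, in control. Neither gene's groups overlapped. Mbl1 changed by -0.85 (SE 0.14, adjusted p = 5.2e-05) and Mbl2 by 1.00 (SE 0.17, adjusted p = 1.2e-04) on the log2 scale. The ratio of Mbl1 to Mbl2 within a liver was 0.351 to 0.570 in Bcl6 KO and 1.22 to 1.95 in control, and its lowest value in any other knockout was 1.17.

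Masp1, a protease that travels with the lectins, was 392, 396, 329, 387 and 368 FPKM in Bcl6 KO against 242 to 328 in control (median 280). The lowest Bcl6 KO liver stood just above the highest control, and the log2 change was 0.39 (SE 0.09, adjusted p = 0.00367). Masp2, the protease that cleaves C4 and C2, did not pass in Bcl6 KO (0.23, SE 0.16, adjusted p = 0.481). In Irs1 KO livers the 4 lectin pathway genes had log2 changes of 0.26 to 0.32 and none passed. The closest was Masp1 (0.26, SE 0.09), whose adjusted p lay just over the threshold.

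Of the 5 classical pathway genes, 1 was lower in Bcl6 KO, and in Irs1 KO 1 was higher and 2 were lower. C1ra, whose product activates C1s, was 196, 202, 204, 178 and 184 FPKM in Irs1 KO livers. Control livers held 105 to 135 FPKM with a median of 115, and no values overlapped. The log2 change was 0.72 (SE 0.09, adjusted p = 8.0e-06). C1s1 did not pass in Irs1 KO (0.04, SE 0.09, adjusted p = 0.820). In Bcl6 KO C1s1 was 964, 1076, 1259, 997 and 1189 FPKM, against 1109 to 1649 with a median of 1494 in control, a log2 change of -0.40 (SE 0.09, adjusted p = 0.00281). The ranges overlapped through sgGFP replicate 3, the lowest control, and the call was lost when only Bcl6 KO and control livers were fitted (adjusted p = 0.0625, range over alternatives 1.1e-04 to 0.0625). C1ra and C1s1 each have a near-identical neighbour in the mouse (C1rb and C1s2), so reads may be split between copies.

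C1qb was 31.9, 27.04, 33.7, 50.2 and 41.0 FPKM in the Irs1 KO livers and 55.1 to 130 FPKM in control (median 70.2), with no overlap. The log2 change was -1.01 (SE 0.28, adjusted p = 0.0191), and it was lost without Irs1 KO replicate 2 or without sgGFP replicate 3 (adjusted p = 0.0594 each; range over alternatives 0.00333 to 0.0594). C1qc was 62.1, 68.3, 61.7, 37.4 and 76.2 FPKM against 83.2 to 160 (median 108), again apart, a log2 change of -0.85 (SE 0.28, adjusted p = 0.0415). That call was lost in 10 of 19 alternatives, among them leaving out Irs1 KO replicate 1, 2, 3 or 4 or sgGFP replicate 1, 2 or 3, and the adjusted p ran from 0.0106 to 0.131. C1qa, the remaining chain, had a log2 change of -0.78 (SE 0.31, adjusted p = 0.0990). In bulk liver, fewer macrophages and less C1q RNA per macrophage cannot be told apart. Of all genes tested, 7.61% were lower in Irs1 KO and 3.24% higher. Of 14 macrophage marker genes tested, 3 were lower in Irs1 KO (Csf1r, Ccr2 and Gpnmb) and 1 was higher (Cd163), and the median log2 change of the list was -0.65. The summed level of these markers was 833 to 1484 FPKM in Irs1 KO and 1075 to 1989 FPKM in control. Clec4f, the defining gene of resident Kupffer cells, averaged 122 ± 11.04 FPKM in Irs1 KO and 120 ± 21.2 FPKM in control. Of 12 stellate cell and fibroblast markers 7 were lower in Irs1 KO, with a median log2 change of -0.90. The part of these cell types in the C1q values was not tested.

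C1q also marked Tbx3 KO replicate 7. This liver held 108 FPKM of C1qa, 137 FPKM of C1qb and 263 FPKM of C1qc, where the other 6 Tbx3 KO livers held 24.5 to 48.0, 36.6 to 52.6 and 55.0 to 88.0. Its summed macrophage marker level was 2559 FPKM, the highest of the 34 livers. On the mean of log2(FPKM + 1) of these markers, relative to all livers, the highest Tbx3 KO liver stood at 0.956. The highest Bcl6 KO liver stood at 0.968. Tbx3 KO replicate 7 was also the highest of its group in cholangiocyte markers on that scale, at 1.38.

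Among the convertase genes, C3 rose in Bcl6 KO livers to 18227, 17927, 18257, 17177 and 14429 FPKM, all above the control maximum of 11549 (control median 10463). The log2 change was 0.74 (SE 0.14, adjusted p = 3.6e-04). Under quantile normalization the change was 0.19 and was lost (adjusted p = 0.664, range over alternatives 7.4e-05 to 0.664). Alb averaged 131469 ± 26540 FPKM in Bcl6 KO and 45811 ± 6557 in control. Of 12 hepatocyte markers, Alb among them, 7 rose in Bcl6 KO, where 2.95% of all genes tested did. The part of these genes in the C3 value was not tested. In Irs1 KO C3 averaged 13450 ± 1668 FPKM (0.38, SE 0.14, adjusted p = 0.0635). C2, the protease of the classical C3 convertase, was 102, 104, 110, 95.9 and 97.2 FPKM in Irs1 KO and 56.0 to 89.8 FPKM in control (median 81.5). These groups did not overlap, and the change was 0.42 (SE 0.13, adjusted p = 0.0287). The C2 call was lost in 7 of 19 alternatives, including those without Irs1 KO replicate 1, 2 or 3, sgGFP replicate 4 or sgLacZ replicate 2, with adjusted p over all alternatives from 0.00389 to 0.105. The C2 locus overlaps a read-through gene that also spans Cfb, so some reads may be shared.

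C4b encodes C4 and C4a its close relative, the sex-limited protein, and the pair are so alike that reads can be split between them. C4b passed in neither Bcl6 KO (0.18, SE 0.12, adjusted p = 0.444) nor Irs1 KO (-0.10, SE 0.12, adjusted p = 0.653). C4a was low in every library, at 5.25 to 81.1 FPKM, and its control values spanned 6.88 to 52.6. It had log2 changes of -1.03 (SE 0.41, adjusted p = 0.149) in Bcl6 KO and 0.95 (SE 0.41, adjusted p = 0.134) in Irs1 KO.

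In the alternative pathway, factor B (Cfb), the protease of its C3 convertase, was 3553, 3404, 3812, 3295 and 3381 FPKM in Bcl6 KO livers. Every value exceeded the control range of 2236 to 2841 (median 2466), a log2 change of 0.50 (SE 0.09, adjusted p = 1.9e-04). Properdin (Cfp), which stabilises that convertase, did not pass in any knockout and lay between 11.4 and 37.0 FPKM over all livers. Factor D (Cfd), the protease that activates factor B, was the most uneven member. It was listed at 0 in 11 of 34 livers.

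Cfd measured 105, 149, 138, 145 and 51.8 FPKM in the 5 Srebf1 KO livers. Control livers held 5.64, 5.80, 0 and 13.6 FPKM with sgGFP and 21.2 and 19.2 FPKM with sgLacZ. All Srebf1 KO livers stood above all controls, and the log2 change was 3.77 (SE 0.95), yet it did not pass over all genes (adjusted p = 0.0721). It passed with the sgGFP livers alone as control (4.45, SE 1.05, adjusted p = 0.0355) and in a fit of those 2 groups alone (adjusted p = 0.0473), and over the other settings tried the adjusted p reached 0.246 with a pseudocount of 0.1. Without Srebf1 KO replicate 1 it was 3.79 (SE 1.03, adjusted p = 0.123). Smyd2 KO livers held 30.9, 8.90, 80.1, 89.9, 63.4 and 0 FPKM of Cfd, Irs1 KO livers 0, 1.75, 4.74, 29.4 and 0 FPKM, and Bcl6 KO livers 0.789, 7.46, 0, 0 and 9.69 FPKM. Tbx3 KO livers were listed at 0 in 5 of 7, with 2.42 and 0.691 FPKM in the others. Against control the Tbx3 KO change was -2.67 (SE 0.87, adjusted p = 0.0944). Of 4 adipocyte markers, the hormone genes Adipoq and Lep and the lipid droplet gene Plin1 reached at most 0.887, 0.669 and 2.57 FPKM, and Adipoq was listed at 0 in 31 of 34 livers. Retn, which codes for resistin, was listed at 0 in 27 livers and reached 4.90 FPKM in sgLacZ replicate 2, against at most 1.39 FPKM in Srebf1 KO livers.

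**Figure D4:**
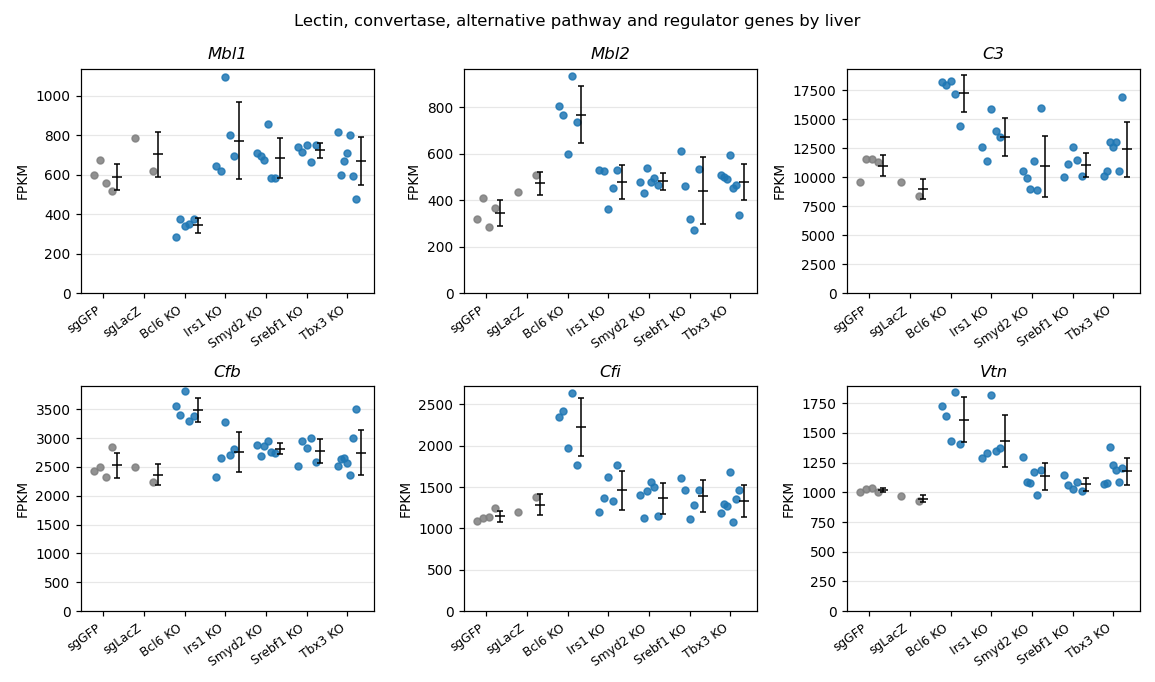
FPKM, on axes that start at 0, for Mbl1, Mbl2, C3, Cfb, Cfi and Vtn in each liver (points) of the 2 control groups (grey) and the 5 knockout groups (blue), with mean ± SD beside them. The 5 Bcl6 KO livers lie below all control livers for Mbl1 and above all control livers for the other 5 genes.

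Of the 6 regulators, 2 were higher in Bcl6 KO and 2 in Irs1 KO against control, and none was lower. Cfi encodes factor I, the protease that cuts up C3b and C4b. It was 2344, 2423, 1972, 2639 and 1763 FPKM in Bcl6 KO livers and 1095 to 1375 FPKM, with a median of 1167, in control. The groups were apart, and the log2 change was 0.89 (SE 0.12, adjusted p = 4.2e-06). Vtn encodes vitronectin, which keeps the attack complex out of host membranes. It was 1725, 1643, 1432, 1844 and 1406 FPKM in Bcl6 KO, 1291, 1334, 1819, 1352 and 1373 FPKM in Irs1 KO and 925 to 1035 FPKM, with a median of 1004, in control. Both knockouts lay wholly above the controls, with log2 changes of 0.69 (SE 0.09, adjusted p = 1.0e-06) and 0.52 (SE 0.09, adjusted p = 2.3e-04).

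Serping1 encodes the C1 inhibitor, which stops C1r, C1s and the lectin proteases. In Irs1 KO it was 684, 760, 1015, 661 and 853 FPKM, against 456 to 605 FPKM in control (median 556), with no overlap, and the log2 change was 0.53 (SE 0.11, adjusted p = 0.00189). In Bcl6 KO it was 0.33 (SE 0.11, adjusted p = 0.0653). Cd55, a membrane protein that breaks up convertases, had a log2 change of 0.51 (SE 0.16, adjusted p = 0.0519) in Bcl6 KO. C4bp, a cofactor of factor I, and clusterin (Clu), a chaperone that binds the attack complex, passed in no knockout against control. The anaphylatoxin receptor genes C3ar1 and C5ar1, which sense the split products C3a and C5a on immune cells, were at most 24.8 and 11.7 FPKM and passed in no comparison.

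**Figure D5:**
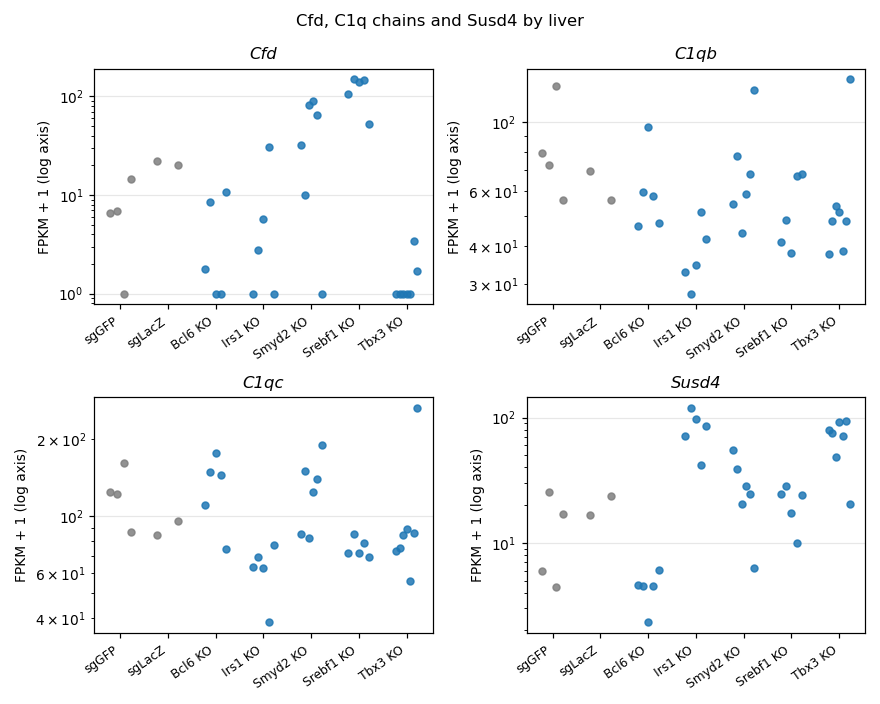
FPKM + 1 on a log axis for Cfd, C1qb, C1qc and Susd4 in each liver (points) of the 2 control groups (grey) and the 5 knockout groups (blue). Cfd is above all controls in the 5 Srebf1 KO livers and listed at 0 in 5 of 7 Tbx3 KO livers, and Tbx3 KO replicate 7 is the highest point for C1qb and C1qc.

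For the 3 knockouts with no call against control, the members of smallest p were as follows. In Smyd2 KO these were C8b (1.32, SE 0.33, adjusted p = 0.201), C1ra (0.28, SE 0.08, adjusted p = 0.374) and Hc (0.40, SE 0.13, adjusted p = 0.412), on the log2 scale. In Srebf1 KO they were Cfd, C8g (0.35, SE 0.13, adjusted p = 0.230) and C8a (0.49, SE 0.24, adjusted p = 0.379). In Tbx3 KO they were C4bp (-0.30, SE 0.09, adjusted p = 0.0606), C9 (0.67, SE 0.21, adjusted p = 0.0733) and C8g (0.37, SE 0.12, adjusted p = 0.0860). The Tbx3 KO count depended on single libraries. Without Tbx3 KO replicate 7, 3 members passed: C6 (-0.95, SE 0.29, adjusted p = 0.0405), C8g (0.46, SE 0.11, adjusted p = 0.0102) and C4bp (-0.35, SE 0.09, adjusted p = 0.0123). Without sgGFP replicate 3, 2 passed, Cfd and C4bp. The Srebf1 KO count was 0 with and without replicate 1.

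The knockouts were also compared with each other, which leaves the control means out. The control livers stayed in the fit and so in its estimate of the spread. Of the 31 members, 19 differed among the 5 knockouts (limma F test, adjusted p under 0.05), where 14.5% of all genes tested did. The ratio of the highest to the lowest knockout mean was 17.2 for C8b (F test adjusted p = 2.2e-09), 6.42 for C8a (9.9e-10), 4.84 for C6 (2.2e-05), 4.81 for C9 (1.9e-09) and 3.97 for C4a (0.00429). Bcl6 KO was the lowest group for each of these 5. The highest was Irs1 KO for C8b, C8a and C4a, Smyd2 KO for C6 and Tbx3 KO for C9. The other members that differed were C1qa, C1qc, C1ra, C1s1, Mbl1, Mbl2, Masp1, C3, Cfb, Cfd, Serping1, C4bp, Cfi and Vtn. Their ratios ran from 1.27 for Cfb to 2.23 for Mbl1, Cfd apart, whose lowest group was mostly at 0.

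Against the mean of the other 4 knockouts, 14 members were called in Bcl6 KO (11.3% of all genes tested), 9 in Irs1 KO (6.45%), 2 in Smyd2 KO (0.679%), 2 in Srebf1 KO (1.24%) and 5 in Tbx3 KO (2.33%). Each knockout also serves in the comparator of the others, so these counts are not independent. Bcl6 KO was the lowest knockout for Mbl1, C6, C8a, C8b and C9, so it lowered the comparator of the other 4 in these genes. Bcl6 KO kept 12 of its 13 calls against control, without Hc, and added C4a, lower, and Cd55, higher. Irs1 KO was higher in C1ra, Mbl1, C2, C6, C8a, C8b, C9 and Serping1 and lower in C1qc. Of these, Mbl1, C6 and C9 did not pass in Irs1 KO against control. C1ra, C8a, C8b and C9 passed in all 28 fits that left out 1 knockout liver. The C2 call was lost without any 1 of the 5 Irs1 KO livers, and C1qc passed in 17 fits (adjusted p up to 0.177). C6 was lost without Irs1 KO replicate 2, 3 or 4, Serping1 without 2, 3 or 5, and Mbl1 without 3 or 4. Smyd2 KO was higher in C6, at 354 to 934 FPKM with a median of 612 (1.12, SE 0.26, adjusted p = 0.0319), and in C8a (0.73, SE 0.18, adjusted p = 0.0483). Neither gene passed in Smyd2 KO against control. C8a passed in 5 of the 28 fits that left out 1 knockout liver (adjusted p up to 0.157), and C6 in 23, with its call lost without Bcl6 KO replicate 1 or Smyd2 KO replicate 1, 2, 3 or 4 (adjusted p of 0.0532 to 0.139). Srebf1 KO was higher in Cfd (4.76, SE 0.78, adjusted p = 3.4e-04; 4.78, SE 0.87, adjusted p = 0.00172 without replicate 1) and lower in Vtn (-0.31, SE 0.07, adjusted p = 0.0182; -0.33, SE 0.08, adjusted p = 0.0222 without it). Without replicate 2, 3, 4 or 5 the Vtn call was lost (adjusted p of 0.0524 to 0.0831), while Cfd passed in all 28 fits that left out 1 knockout liver. Tbx3 KO was higher in C9 (0.82, SE 0.16, adjusted p = 0.00250), where its livers held 764 to 1183 FPKM, and lower in Masp1, Cfd, Serping1 and C4bp, with log2 changes of -0.27, -3.28, -0.30 and -0.29. Those 5 calls also stood without Tbx3 KO replicate 7, where C6 and Clu were lower too. The C4bp call was lost without Tbx3 KO replicate 1, 2 or 3 (adjusted p up to 0.0943). Serping1 passed in 18 of the 28 fits that left out 1 knockout liver (adjusted p up to 0.115). Its call was lost without Tbx3 KO replicate 1, 2, 3 or 5 and without some single livers of each other knockout.

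Of 31 other complement genes outside the set, 28 could be tested. The shares of all genes tested that were higher and lower were 2.95% and 3.19% in Bcl6 KO and 3.24% and 7.61% in Irs1 KO. In Tbx3 KO they were 1.17% and 1.37%. In Bcl6 KO, 2 were higher, carboxypeptidase N (Cpn1, which trims C3a and C5a; 0.49, SE 0.08, adjusted p = 2.0e-04) and Crp (0.75, SE 0.19, adjusted p = 0.00966), and 1 was lower, Susd4. In Irs1 KO, 6 were higher (among them C1rl, Cfhr2, Fcna, Cpn2 and Susd4) and 3 lower (Cd46, Cd93 and Itgax, the last a chain of a myeloid complement receptor). In Tbx3 KO, Susd4 was higher and Colec12 lower, and in Smyd2 KO and Srebf1 KO none passed. Susd4, a sushi-domain protein that inhibits complement, was 3.60, 3.54, 1.31, 3.55 and 5.05 FPKM in Bcl6 KO livers. In Irs1 KO it was 69.8, 118, 96.1, 40.7 and 85.1 FPKM, in Tbx3 KO 19.5 to 93.4 FPKM with a median of 74.3, and in control 3.44 to 24.3 FPKM with a median of 15.9. The log2 changes were -1.61 (SE 0.47, adjusted p = 0.0343), 2.60 (SE 0.47, adjusted p = 5.5e-04) and 2.28 (SE 0.43, adjusted p = 0.00234) in turn. Of 18 acute phase genes, which the liver makes during inflammation, 5 rose in Bcl6 KO (Hpx, Itih3, Itih4, Lbp and Cp). In Irs1 KO 5 rose (Itih3, Itih4, Fga, Fgb and Fgg) and 2 fell (Lcn2 and Cp). The median log2 change of that list was 0.43 in Bcl6 KO and 0.17 in Irs1 KO. Irs1 KO replicate 3 stood apart from its group in these genes, with a mean of log2(FPKM + 1) that was 1.17 above the mean over all livers, where the other 4 Irs1 KO livers lay at -0.89 to -0.16 and the controls at -0.23 to 0.08. Its part in the Irs1 KO values was not tested for this list.

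Markers of the cell types a liver can hold were read beside these values. The shares of all genes tested that were called in each knockout are given with the member counts above. Of 12 hepatocyte markers, 7 were higher in Bcl6 KO, 7 in Irs1 KO and 3 in Tbx3 KO, where 1 was lower. Their summed level was 177542 to 242686 FPKM in Bcl6 KO, 110264 to 146153 in Irs1 KO and 89405 to 114346 in control. No macrophage marker passed in Bcl6 KO or Tbx3 KO. Of the stellate cell and fibroblast markers, 1 was lower in Bcl6 KO and 3 in Tbx3 KO. Of 10 endothelial markers, 4 were higher in Bcl6 KO and 2 lower in Irs1 KO, and of 6 cholangiocyte markers 1 was lower in each of these knockouts. None of the 3 neutrophil, 5 lymphocyte or 1 adipocyte markers that could be tested passed in any knockout, and no marker of any list passed in Smyd2 KO or Srebf1 KO. The part of the cell make-up in the complement values was not tested.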

How the data were processed

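RNA of 34 livers was analysed from the FPKM table that the authors deposited, with 1 value per gene symbol and liver. The counter was featureCounts 1.6.4 per the submitters' processing notes, which also name mm10 and GRCh38 without their role. Per the labels' protocols, libraries came from total RNA and a stranded kit. Aligner, annotation and strand setting were not given in the sources used here, so reads of overlapping or antisense genes may not be separated. The deposited FPKM of 21 members carry over 15 significant digits, as sums over transcripts do. Depth was implied from low values and annotated transcript lengths.

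The test was limma 3.58.1 (R 4.3.3), run on log2(FPKM + 1) for genes that reached an FPKM of 1 in 5 or more libraries, in 1 fit of 6 levels over all livers with an intensity trend. Two-sided p-values were adjusted (Benjamini-Hochberg) across the 19295 genes tested and read at a threshold of 0.05, and no p was adjusted over the members alone. The fit was tested on simulated data. Each liver is taken as its own animal from the numbering of the labels, and if some share an animal the p-values cover only sample-to-sample spread. Promoters are RefSeq windows (GRCm38.p6), matched by symbol for 22 of 31 members, and gene positions are from GENCODE M21. Figures were drawn with matplotlib in Python.

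The members and gene lists were chosen with earlier results of these data known. All 31 members are named by role, with values per liver for those past the threshold against control or most changed in their role, and the 3 with the smallest p where none passed. Of other complement genes, those past the threshold are named, except for a result that is not reported here. Alternatives were a pseudocount of 0.1, no filter, a filter at an FPKM of 5, median scaling, quantile normalization, sgGFP alone as control, fits of 1 knockout and control, a replicate block, and leaving out each liver.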

Additional observations from a re-analysis of the deposited data

Results flagged for a closer look

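For each member and group, the highest or lowest liver was compared with the rest of its group by Dixon's ratio on log2(FPKM + 1). Of 186 combinations 17 passed the 95% critical value, and chance alone flags about 1 in 20. Tbx3 KO replicate 7 accounted for 6 of them, the most of any liver. It was the highest of 7 in C1qb at 137 FPKM, C1qc at 263 FPKM, Masp1 at 340 FPKM, C2 at 106 FPKM, Clu at 3436 FPKM and C3ar1 at 24.8 FPKM. In the other 6 Tbx3 KO livers the highest values of these genes were 52.6, 88.0, 285, 77.7, 2020 and 6.17 FPKM. Tbx3 KO replicate 6 was the highest in Cfd, at 2.42 FPKM where the others reached at most 0.691.

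Among controls, sgGFP replicate 3 was the lowest of 6 in Masp2 at 210 FPKM and in C8g at 407 FPKM, with the others at 352 or more and 515 or more. SgLacZ replicate 1 was the highest in C6 at 853 FPKM and sgLacZ replicate 2 the lowest in C8b at 98.4 FPKM. In Bcl6 KO, replicate 5 was the lowest in C3 at 14429 FPKM and in C4b at 2027 FPKM. Smyd2 KO replicate 6 was the lowest in Masp2 at 262 FPKM and Irs1 KO replicate 3 the highest in Vtn at 1819 FPKM. Srebf1 KO replicate 2 was the highest in Hc at 1298 FPKM and Srebf1 KO replicate 4 the lowest in C9 at 486 FPKM.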

How the results depend on the processing

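Of the 22 member calls against control in Bcl6 KO and Irs1 KO, 16 passed under every alternative run, 6 were lost in at least 1 (C1s1, C3 and Hc in Bcl6 KO and C1qb, C1qc and C2 in Irs1 KO) and 0 reversed. Over fits leaving out 1 liver, the count ran from 12 to 14 in Bcl6 KO, 6 to 11 in Irs1 KO, 0 to 3 in Tbx3 KO, and 17 to 21 among the 5 knockouts, and stayed at 0 in Smyd2 KO, Srebf1 KO and between the controls. Against the other 4 knockouts it ran from 13 to 17 in Bcl6 KO, 5 to 11 in Irs1 KO (5 without Irs1 KO replicate 2, 3 or 4), 0 to 3 in Smyd2 KO, 1 to 2 in Srebf1 KO (1, Cfd, without replicate 2, 3, 4 or 5) and 3 to 7 in Tbx3 KO (3 without Tbx3 KO replicate 1, 2 or 3). The Smyd2 KO count left its value of 2 in 22 of 28 such fits. It was 0 without Bcl6 KO replicate 1 or Smyd2 KO replicate 1, 2, 3 or 4, and 1, C6, with a pseudocount of 0.1, without a filter and under median scaling. The Tbx3 KO count against control, 0 as reported, was 1 under median scaling (C9), under quantile normalization (C4bp) and in a fit of Tbx3 KO and control alone (C9). The Srebf1 KO count against control, 0 as reported, was 1 (Cfd) with sgGFP alone as control and in a fit of Srebf1 KO and control alone. The cause of these shifts was not tested. Quantile normalization moved the median log2 change of all genes in Irs1 KO by 0.14, and no other scaling moved one by over 0.1.

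Replicate numbers are shared between groups, but nothing in the labels says that they pair livers. The deviations of same-numbered livers from their group means had r of -0.18 to 0.16 with a median of -0.00 over 81 pairs, of which 3 exceeded 0.1. With the replicate block in the fit, which leaves Tbx3 KO replicate 7 with no partner and so without weight, the count was 14 in Bcl6 KO, 12 in Irs1 KO, 5 in Tbx3 KO against control and 1 in Smyd2 KO against the other 4 knockouts.

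At 2110000 to 3130000 counted reads, members of a few FPKM (C7, C3ar1, C5ar1 and, in most livers, Cfd) rest on few reads, and a value of 0 is below detection and is no proof of absence.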
